A study of Mus musculus with 6 samples.

Results

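The 37 genes described here encode the enzymes that copy DNA and supply its deoxynucleotides: the MCM helicase, the factors that license and fire origins, the sliding clamp and its loader, the replicative polymerases, ribonucleotide reductase and their partners. They were chosen by gene symbol from a list, and all 37 had a row among the 13706 genes of the deposited expression table. All 37 also passed the filter on low values, which 13648 genes passed. RNA came from primary mouse dermal fibroblasts in 6 libraries, 2 per group. Every culture was homozygous for floxed Yap1 and floxed Wwtr1 (Yap1 fl/fl; Wwtr1 fl/fl) and was kept for 72 hr in 1 µM 4OH-Tamoxifen, the ligand that activates the Cre used. Control cells had no Cre. YAP/TAZ knockout (KO) cells carried R26-CAG-CreER, a tamoxifen-dependent Cre at the ROSA26 locus under the CAG promoter, which is active in most cell types. The third group, KO + H-151, held such KO cells given 1 µM H-151, a covalent inhibitor of STING. Cre and the loss of YAP and TAZ came together in both KO groups, so their effects cannot be told apart. No control cells were given H-151. In KO + H-151 against control, the drug therefore cannot be told apart from Cre and the deletion. The labels name no age. Nor do they say if replicates stem from different cultures or mice, so a p-value covers no more than the variation among the 6 libraries, which may be technical.

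As background, replication begins when ORC, CDC6 and CDT1 load the MCM2 to MCM7 ring onto DNA in G1. In S phase CDC45 and GINS join the ring to form the moving helicase, PCNA tethers the polymerases, and ribonucleotide reductase (RRM1 and RRM2), thymidylate synthase and thymidine kinase provide the precursors. Many of these genes are targets of E2F transcription factors and are transcribed mainly in cells that enter S phase, so in dermal fibroblast cultures their RNA is commonly read as a sign of proliferation. YAP and TAZ, encoded by Yap1 and Wwtr1, are coactivators of TEAD factors and are known to promote growth in many cell types. STING relays the sensing of cytosolic DNA into an interferon response, and limiting deoxynucleotide supply is one way in which cells restrict viral DNA.

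The promoters were examined first, because the E2F site is the sequence these genes are best known to share. RefSeq promoter entries (GRCm38.p6, 250 bases before to 50 bases after the start) were found for 30 of the 37 genes. Mcm7, Fen1, Lig1, Uhrf1 and Dnmt1 had more than 1 entry, and a gene was counted if any entry held the motif. Mcm4, Gins1, Gins2, Gins4, Rfc2, Pole and Prim2 had no entry. The E2F consensus was searched on both strands as TTTCCCGC, TTTCGCGC, TTTGCCGC or TTTGGCGC, and sites on opposite strands may overlap. It was present in 13 of 30 genes (43.3%), against 4.66% of the 10290 genes of the expression table that had an entry. Members with it were Mcm3, Mcm5, Mcm6, Mcm7, Cdc6, Cdt1, Gins3, Rfc3, Pola1, Pold1, Lig1, Uhrf1 and Dnmt1. In Uhrf1 and Dnmt1 the consensus was in the entries starting at 56304313 and 20952623, not in those starting at 56303337 and 20959888. In Mcm7 and Lig1 it was only in the entries starting at 138171883 and 13278826. Dnmt1 and Lig1 are annotated from 20959888 (minus strand) and 13277283, so their entries with the consensus lie inside the genes. In the 100 bases before the start it was present in 3 of 30 (10%, against 1.74% of the same genes). These were Mcm6, Gins3 and Rfc3. The letters CCAAT occurred in 19 of 30 (63.3%, against 42.9%), TTTGAA in 5 of 30 (16.7%, against 14.1%) and GGAATG, the core recognised by TEAD factors, in 3 of 30 (against 14.5%).

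Stretches that show the arrangement are printed for Mcm6, the gene with the largest change, for Mcm5, Cdc6 and Uhrf1, which moved the other way in KO, for Pola1, which did not pass any test, and for Rrm2, a gene that fell and has no E2F consensus in its entry. Each is written in the direction of its gene. Capitals mark the E2F consensus on either strand, and in Rrm2 they mark CCAAT.
Mcm6 (chr1:128359715-128359845, minus strand): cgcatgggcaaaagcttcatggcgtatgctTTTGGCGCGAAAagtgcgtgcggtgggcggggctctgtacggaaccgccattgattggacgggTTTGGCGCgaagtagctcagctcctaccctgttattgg
Mcm5 (chr8:75109326-75109397, plus strand): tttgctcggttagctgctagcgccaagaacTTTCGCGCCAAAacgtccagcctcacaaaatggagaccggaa
Cdc6 (chr11:98907983-98908050, plus strand): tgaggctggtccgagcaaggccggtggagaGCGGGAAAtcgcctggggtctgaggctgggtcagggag
Uhrf1 (chr17:56304098-56304165, plus strand): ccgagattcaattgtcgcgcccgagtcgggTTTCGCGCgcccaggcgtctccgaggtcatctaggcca
Pola1 (chrX:93632256-93632323, minus strand): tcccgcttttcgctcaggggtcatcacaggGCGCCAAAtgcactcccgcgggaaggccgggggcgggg
Rrm2 (chr12:24708174-24708238, plus strand): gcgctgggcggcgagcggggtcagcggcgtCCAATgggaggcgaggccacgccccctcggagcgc
In Mcm6 and in Mcm5 a pair of sites on opposite strands overlaps, and Mcm6 has a further site nearer its start. The Uhrf1 stretch belongs to the entry starting at 56304313, which lies inside the gene as annotated from 56303321. A match of letters is a description of the sequence and shows no binding.

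Levels were measured with QuantSeq, which reads 1 tag near the 3′ end of each polyadenylated transcript, and are given in scaled CPM, read counts relative to an adjusted library total. Library totals over the table's genes ran from 12444986 to 15308100 reads. Since 1 tag is read per transcript, levels were not divided by gene length. Beyond the range that follows, levels of different members are not ranked against each other. Over all libraries the mean level of a member ran from 3.57 scaled CPM for Gins1, with 40 to 57 reads per library, to 129 for Rfc1, with 1498 to 2104 reads. Of the floxed genes, Wwtr1 stood at 213 and 218 in control, 4.79 and 5.03 in KO, and 3.07 and 4.002 in KO + H-151. Yap1 kept much of its RNA, at 122 and 128 in control, 66.4 and 68.3 in KO, and 45.3 and 42.4 in KO + H-151, so the KO groups also differed from each other in it. The labels do not say which exons are floxed, and tags read at the 3′ end measure the deletion only if they fall in or depend on the floxed sequence. All 10 fibroblast markers were in the table, with summed levels of 32546 to 33094 in control, 37200 to 39122 in KO and 24108 to 26070 in KO + H-151. These sums are mostly collagen, and single markers went other ways: Pdgfra fell in KO (-1.19 ± 0.07), and with H-151 against KO Pdgfra, Lum, Thy1 and Dcn rose while the other 6 fell. Of 7 keratinocyte markers only Krt10 had a row. Log2 changes (± SE) were computed after adding 1 to each scaled CPM, with p-values adjusted over all 13648 genes (limma, Benjamini-Hochberg, threshold 0.05). This scale understates the changes of genes with low levels. In whole cultures, fewer cells in S phase and less RNA per such cell cannot be told apart.

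The replication genes went in both directions in KO. In KO against control 4 of 37 rose (Mcm6, Gins3, Pcna and Rfc5) and 7 fell (Mcm5, Mcm7, Cdc6, Rrm1, Rrm2, Uhrf1 and Dnmt1). Of all genes tested, 18.2% rose and 14.2% fell, so the share of members called in either direction, 29.7%, lay near the 32.4% of all genes. These counts depend on the scaling and on single libraries: total-count scaling gave 2 higher and 17 lower, and 5 to 12 members were called with 1 library left out (5 without control replicate 2, 6 without either KO library). The median log2 change of the members was -0.19, against -0.01 over all genes, and 25 of 37 had a change below 0. In KO + H-151 against control the pattern was more one-sided, with 13 members lower, 1 higher (E2f1) and a median of -0.22. The share of members called was 37.8%, against 22.9% of all genes, of which 11.4% were lower and 11.5% higher. With H-151 against KO, 5 fell (Mcm6, Gins3, Pcna, Rfc5 and Tyms) and 1 rose (Cdt1), together 16.2% of members against 40.8% of all genes (21.4% lower and 19.4% higher). The members' median was -0.10, against 0.02 over all genes. The 3 comparisons share libraries, so the values of a gene in them are not independent. In all, 20 members passed in at least 1 comparison and 17 in none. Lack of overlap between groups, given below for single genes, was common with 2 libraries per group. It held for 66.9% of all genes in KO against control. The share was 69.2% with H-151 against KO and 59% in KO + H-151 against control.

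**Figure D1:**
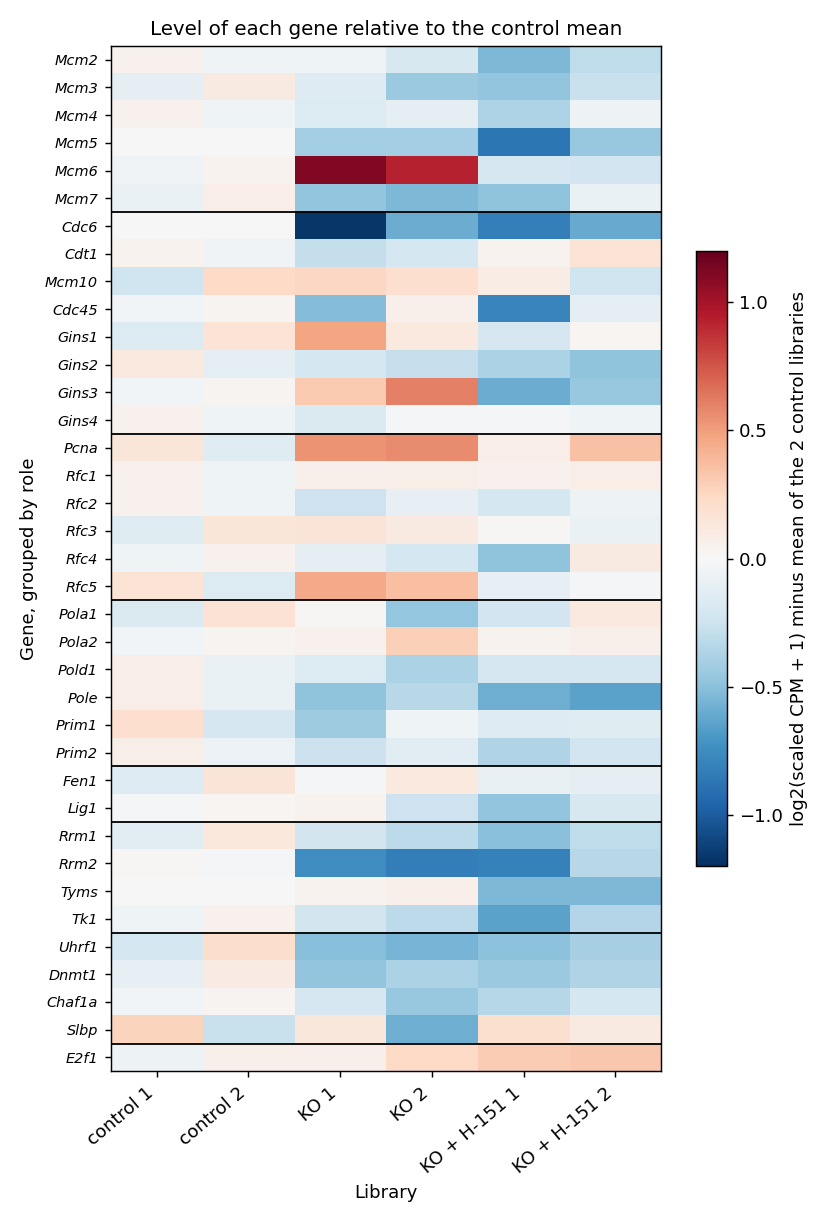
Level of each of the 37 genes (rows, grouped by role) in each library (columns), as log2(scaled CPM + 1) minus the mean of the 2 control libraries. Mcm6, Gins3, Pcna and Rfc5 are red in both KO libraries, while Rrm2, Cdc6, Uhrf1 and Dnmt1 are blue in both.

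The MCM genes encode the 6 subunits of the ring helicase that unwinds DNA, and Mcm6 parted from the other 5. Mcm6 (chromosome 1, 128331590 to 128359664, GRCm38) stood at 35.7 and 37.9 scaled CPM in control, 80.8 and 70.9 in KO, and 31.9 and 31.2 in KO + H-151. Both KO libraries lay above the other 4 libraries, which lay close together. Its log2 change was 1.02 ± 0.09 in KO against control (adjusted p = 1.80e-07, 2.03-fold) and -1.24 ± 0.09 with H-151 against KO (adjusted p = 1.38e-08). Against control, KO + H-151 differed by -0.22 ± 0.09 (adjusted p = 0.108). Both calls were kept whichever library was left out.

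Mcm7, another subunit of the ring, stood at 49.3 and 55.1 in control and 37.3 and 35.6 in KO, a fall of 0.50 ± 0.12 on the log2 scale (adjusted p = 0.00298). The call was kept whichever library was left out and was lost in a fit without a variance trend. In KO + H-151 its libraries were far apart, at 36.91 and 49.27, the upper one just under the lower control value of 49.28. The difference from control, -0.28 ± 0.12, did not pass (adjusted p = 0.0949). The gene overlaps Cops6 on the other strand at its 3′ end, and the strand setting of the counting is not given in the sources used here. Cops6 changed by -0.12 ± 0.08 in KO (adjusted p = 0.281).

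Mcm5 was the subunit lowest in KO + H-151 relative to control. Its values were 20.2 and 20.1 in control, 14.9 and 14.99 in KO, and 10.6 and 14.4 in KO + H-151, so that each KO library of either kind lay below both control libraries. The log2 change was -0.41 ± 0.14 in KO (adjusted p = 0.0383) and -0.66 ± 0.14 in KO + H-151 against control (adjusted p = 0.00293). The KO call was lost without any 1 of the 4 control and KO libraries (highest adjusted p = 0.135).

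Mcm2 and Mcm3 passed only in KO + H-151 against control. Mcm2 stood at 22.8 and 21.1 in control, 21.2 and 19.1 in KO, and 14.8 and 17.5 in KO + H-151 (-0.42 ± 0.12, adjusted p = 0.0216). Mcm3 stood at 43.9 and 50.8, then 42.2 and 34.3, then 33.6 and 39.1 (-0.37 ± 0.11, adjusted p = 0.0268). The Mcm2 call was lost without either control library or without KO + H-151 replicate 1 (highest adjusted p = 0.142), and the Mcm3 call without control replicate 2 or KO + H-151 replicate 1 (highest adjusted p = 0.2503). Mcm4 passed in no comparison, with changes of -0.14 ± 0.11, -0.08 ± 0.11 (positive under total-count scaling) and -0.22 ± 0.11 for KO minus control, H-151 minus KO and H-151 minus control.

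The unequal change of the subunits can be read as the share of Mcm6 among the reads of Mcm2 to Mcm7 together. That share was 17.0% (exact 95% binomial interval 15.7 to 18.4) and 17.2% (15.9 to 18.6) in the control libraries. It was 35.3% (33.4 to 37.1) and 33.99% (32.1 to 35.9) in KO. In KO + H-151 it was 20.5% (18.9 to 22.1) and 16.7% (15.4 to 18.1). The intervals cover counting error only. The summed level of the other 5 genes was 174 and 182 scaled CPM in control, 148 and 138 in KO, and 124 and 155 in KO + H-151.

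**Figure D2:**
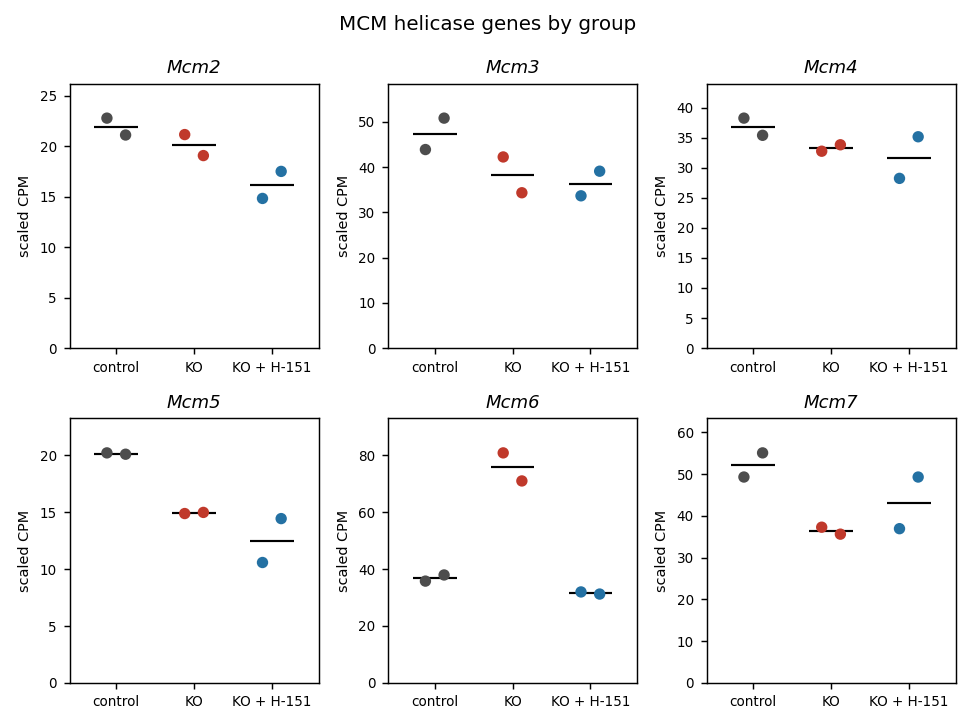
Scaled CPM (vertical axis, from 0) of the 6 MCM helicase genes in control, KO and KO + H-151. Points are libraries and lines are means of 2; Mcm6 is at 80.8 and 70.9 in KO, above its other 4 libraries, while no other subunit is highest in KO.

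Among the factors that load and start the helicase, Cdc6 fell and Gins3 rose in KO. Cdc6, the ATPase that recruits MCM to origins, stood at 7.05 and 7.13 scaled CPM in control, 2.61 and 4.34 in KO, and 3.59 and 4.32 in KO + H-151. Every library with Cre lay below both control libraries. The log2 change was -0.88 ± 0.20 in KO (adjusted p = 0.00322) and -0.71 ± 0.20 in KO + H-151 against control (adjusted p = 0.0187), at 30 to 99 reads per library. The KO call was lost without KO replicate 1 (adjusted p = 0.0645), and the other one without either control library or KO + H-151 replicate 1 (highest adjusted p = 0.0958).

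Gins3 encodes a subunit of the GINS ring that joins MCM and CDC45. Its levels were 9.54 and 10.02 in control, 12.4 and 15.4 in KO, and 6.14 and 6.88 in KO + H-151, so the 3 groups did not overlap. The log2 changes were 0.46 ± 0.16 in KO (adjusted p = 0.0334), -0.98 ± 0.16 with H-151 against KO (adjusted p = 9.44e-05) and -0.52 ± 0.16 in KO + H-151 against control (adjusted p = 0.0233). It was the 1 member that passed in all 3 comparisons. The rise in KO was lost without either control library or without KO replicate 2 (highest adjusted p = 0.274), and under total-count scaling. The difference from control with H-151 was lost without either control library or KO + H-151 replicate 1 (highest adjusted p = 0.131).

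The other GINS genes gave 1 call among them. Gins2 stood at 22.6 and 19.1 in control, 17.8 and 16.9 in KO, and 15.7 and 14.6 in KO + H-151, where it was lower than control (-0.43 ± 0.13, adjusted p = 0.0200). This call was lost without control replicate 1 or KO + H-151 replicate 2 (highest adjusted p = 0.201). Gins2 overlaps Gse1 on the other strand at its 3′ end, and Gse1 differed by 0.29 ± 0.12 in the same comparison (adjusted p = 0.0918). Gins1 had the signs of Gins3, with 0.29 ± 0.21 in KO and -0.38 ± 0.21 with H-151 against KO, and Gins4 had -0.10 ± 0.12 and 0.06 ± 0.12. Neither passed in any comparison.

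Cdt1, the partner of CDC6 in licensing, stood at 14.6 and 13.6 in control, 11.4 and 12.01 in KO, and 14.6 and 15.9 in KO + H-151. It rose with H-151 against KO by 0.35 ± 0.13 (adjusted p = 0.0419), a call that was lost without any 1 of the 6 libraries (adjusted p from 0.0535 to 0.185) and with a term for the replicate number (adjusted p = 0.0518). Mcm10 and Cdc45, which act when the helicase is switched on, passed in no comparison. Cdc45 was spread widely within groups, at 2.96 and 4.94 in KO and 2.29 and 4.25 in KO + H-151.

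Of the clamp and clamp loader genes, 2 of 6 rose in KO. Called in either direction were 33.3% of them, against 32.4% of all genes (18.2% higher). Pcna, the sliding clamp, stood at 27.8 and 22.6 scaled CPM in control, 36.9 and 37.7 in KO, and 26.7 and 32.2 in KO + H-151. The KO libraries were the highest of the 6. The rise in KO was 0.55 ± 0.12 (adjusted p = 0.00175), and the fall with H-151 against KO was 0.34 ± 0.12 (adjusted p = 0.0314). The fall was lost without either KO library or KO + H-151 replicate 1 (highest adjusted p = 0.222), and under quantile normalization and total-count scaling. Pcna has annotated processed copies, Pcna-ps1 and Pcna-ps2, that could share its reads.

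Rfc5, a small subunit of the clamp loader, stood at 13.2 and 10.2 in control, 16.3 and 15.2 in KO, and 10.8 and 11.4 in KO + H-151. It rose in KO by 0.41 ± 0.15 (adjusted p = 0.0420) and fell with H-151 by 0.47 ± 0.15 (adjusted p = 0.0165). Wsb2 lies on the other strand at the 3′ end of Rfc5, has a mean level of 125 against 12.8 for Rfc5, and changed by 0.47 ± 0.07 and -0.42 ± 0.07 in the same comparisons. Without a known strand setting the reads of these neighbours cannot be told apart. The rise was lost without control replicate 2 or either KO library (highest adjusted p = 0.354), and the fall without KO replicate 1 or KO + H-151 replicate 1 (highest adjusted p = 0.100). Both were lost under total-count scaling.

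Rfc1, the large subunit of the loader, stood at 129 and 120.1 in control, 130.4 and 131 in KO, and 129 and 132 in KO + H-151. Its log2 difference between KO and control was 0.07 (95% interval -0.08 to 0.22), with a negative sign under quantile normalization and total-count scaling. Rfc2, Rfc3 and Rfc4 passed in no comparison either, with KO differences of -0.17 ± 0.11, 0.13 ± 0.13 and -0.16 ± 0.21. The difference of Rfc3 was negative under total-count scaling.

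The polymerase and primase genes gave no call in KO, 0 of 6, and their log2 differences ran from -0.41 (Pole) to 0.17 (Pola2). Of all genes, 32.4% were called in KO. Before adjustment Pole alone passed 0.05 in limma's fit, and edgeR's test with Benjamini-Hochberg adjustment also called 0. The 95% intervals of the 6 reached from -0.77 (Pole) to 0.45 (Pola2). Pole, the catalytic subunit of the leading-strand polymerase, stood at 7.98 and 6.99 in control, 5.05 and 5.71 in KO, and 4.64 and 4.44 in KO + H-151. It was lower in KO + H-151 than in control by 0.61 ± 0.17 (adjusted p = 0.0158), which was lost without control replicate 1 or KO + H-151 replicate 2 (highest adjusted p = 0.123). Pola1 and Pola2 of the priming polymerase, Prim1 and Prim2 of primase, and Pold1 of the lagging-strand polymerase passed in no comparison.

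The 2 genes for enzymes that finish Okazaki fragments gave no call in KO, while Lig1 was lower in KO + H-151 than in control. Of all genes, 32.4% were called in KO and 11.4% were lower in KO + H-151 against control. Lig1, the replicative DNA ligase, stood at 93.6 and 96.3 in control, 97.7 and 79.8 in KO, and 68.3 and 82.7 in KO + H-151. Its KO libraries enclosed the control values, while both KO + H-151 libraries lay below control (-0.33 ± 0.10, adjusted p = 0.0248). That call was lost without either control library or KO + H-151 replicate 1 (highest adjusted p = 0.179). The flap endonuclease gene Fen1 changed by 0.05 ± 0.13 in KO, with a negative sign under quantile normalization and total-count scaling, and passed in no comparison.

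All 4 genes of deoxynucleotide supply were lower in KO + H-151 than in control, and 2 of them, Rrm1 and Rrm2, fell in KO. Of all genes, 11.4% were lower in KO + H-151 against control and 14.2% fell in KO. Rrm2, the S-phase subunit of ribonucleotide reductase, stood at 34.6 and 33.9 scaled CPM in control, 20.03 and 18.9 in KO, and 19.1 and 27.01 in KO + H-151. Every library with Cre was below control. The log2 change was -0.79 ± 0.13 in KO (adjusted p = 2.50e-04) and -0.57 ± 0.13 in KO + H-151 against control (adjusted p = 0.00534). The KO call was kept whichever library was left out, and the other one was lost without KO + H-151 replicate 1 (adjusted p = 0.0701). H-151 against KO gave 0.21 ± 0.13 (95% interval -0.07 to 0.50, adjusted p = 0.226).

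Rrm1, the large subunit, changed less. Its values were 79.2 and 94.3 in control, 74.2 and 69.4 in KO, and 60.7 and 69.7 in KO + H-151. The falls were 0.26 ± 0.09 in KO (adjusted p = 0.0411) and 0.40 ± 0.09 in KO + H-151 against control (adjusted p = 0.00496). The first was lost without control replicate 2 or either KO library (highest adjusted p = 0.403), and the second without control replicate 2 (adjusted p = 0.111).

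Tyms, thymidylate synthase, behaved differently from ribonucleotide reductase. It stood at 28.5 and 28.5 in control, 29.3 and 29.7 in KO, and 19.3 and 19.3 in KO + H-151, with replicates almost equal in each group. In KO it differed from control by 0.05 ± 0.10 (95% interval -0.17 to 0.27, negative under quantile normalization and total-count scaling). With H-151 it fell by 0.59 ± 0.10 against KO (adjusted p = 2.27e-04) and stood 0.54 ± 0.10 below control (adjusted p = 0.00105), both kept whichever library was left out. A processed copy, Tyms-ps, is annotated and could share its reads.

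Tk1, the S-phase thymidine kinase, stood at 23.3 and 25.01 in control, 20.6 and 19.2 in KO, and 15.1 and 18.7 in KO + H-151. The difference in KO, -0.26 ± 0.13, did not pass (adjusted p = 0.123). In KO + H-151 it was lower than control (-0.50 ± 0.13, adjusted p = 0.00852), a call lost without control replicate 2 or KO + H-151 replicate 1 (highest adjusted p = 0.0858).

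**Figure D3:**
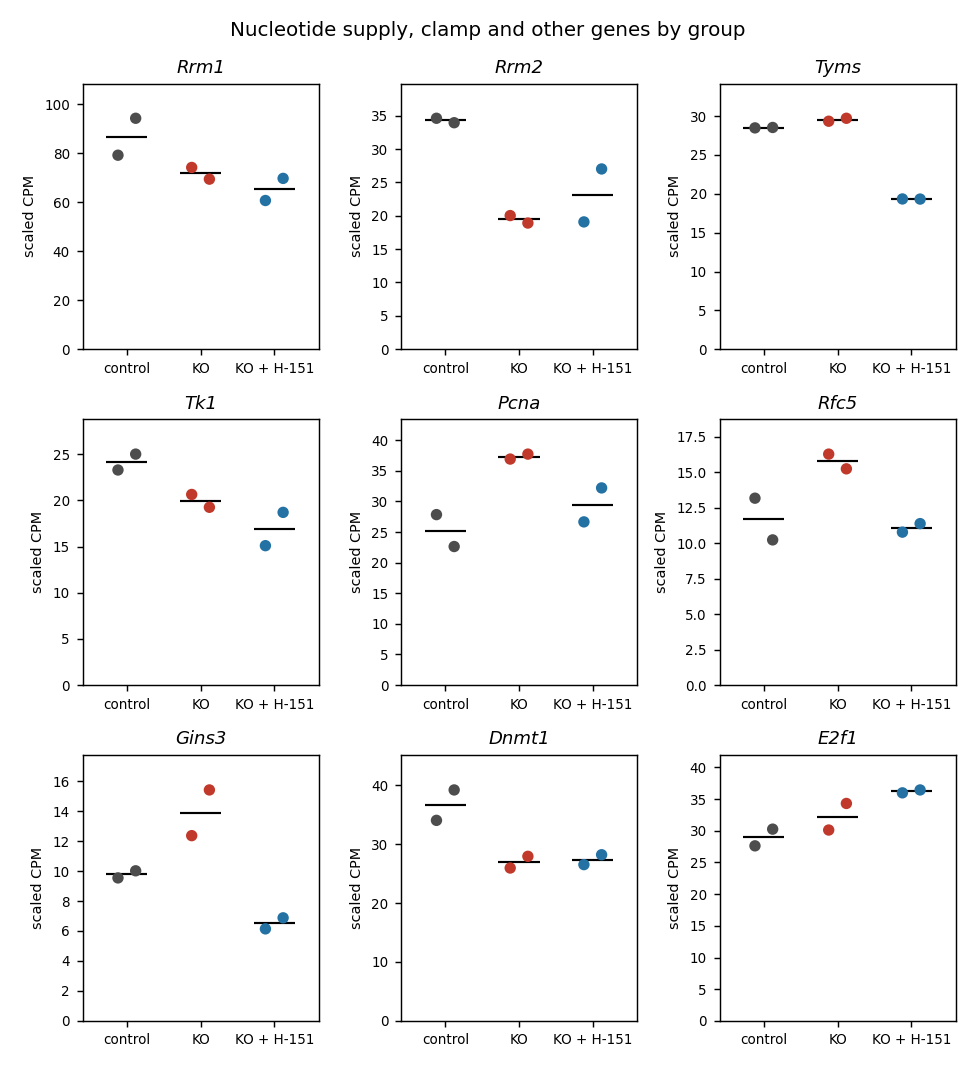
Scaled CPM (vertical axes, from 0) of 9 genes in the 3 groups; points are libraries and lines are means of 2. Rrm2 is below control in all KO and KO + H-151 libraries, Tyms only in KO + H-151, and Pcna, Rfc5 and Gins3 are highest in KO.

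Of the 4 genes for copying chromatin marks and processing histone mRNA, Dnmt1 and Uhrf1 fell in KO and the others did not pass. Of all genes, 14.2% fell in KO. Dnmt1, the maintenance DNA methyltransferase, stood at 34.04 and 39.2 scaled CPM in control, 25.9 and 27.9 in KO, and 26.5 and 28.2 in KO + H-151. All 4 libraries with Cre lay below control and close together. The log2 change was -0.43 ± 0.11 in KO (adjusted p = 0.00500) and -0.40 ± 0.11 in KO + H-151 against control (adjusted p = 0.0103). The difference made by H-151 was 0.02 (95% interval -0.20 to 0.24). The KO call was lost without control replicate 2 or KO replicate 1 (highest adjusted p = 0.0892), and the other one without control replicate 2 (adjusted p = 0.152).

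Uhrf1, which brings DNMT1 to newly copied DNA, stood at 6.34 and 8.79 in control, 4.96 and 4.77 in KO, and 5.03 and 5.44 in KO + H-151. It fell in KO by 0.53 ± 0.18 (adjusted p = 0.0346), which was lost without control replicate 2 or either KO library (highest adjusted p = 0.329). Chaf1a, a subunit of the chromatin assembly factor, differed by -0.33 ± 0.13 in KO (adjusted p = 0.0741). Slbp, which binds the stem-loop of histone mRNAs, had replicates as far apart as 5.57 and 2.98 in KO and passed in no comparison.

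E2f1, a transcription factor that drives many of these genes and is itself a target of E2F, did not move with them. It stood at 27.6 and 30.3 in control, 30.1 and 34.3 in KO, and 35.997 and 36.5 in KO + H-151. It was higher in KO + H-151 than in control by 0.32 ± 0.10 (adjusted p = 0.0340), where 13 other members were lower. This call was lost without any 1 of the 4 control and KO + H-151 libraries (highest adjusted p = 0.215). In KO it differed by 0.15 ± 0.10, with a negative sign under total-count scaling.

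**Figure D4:**
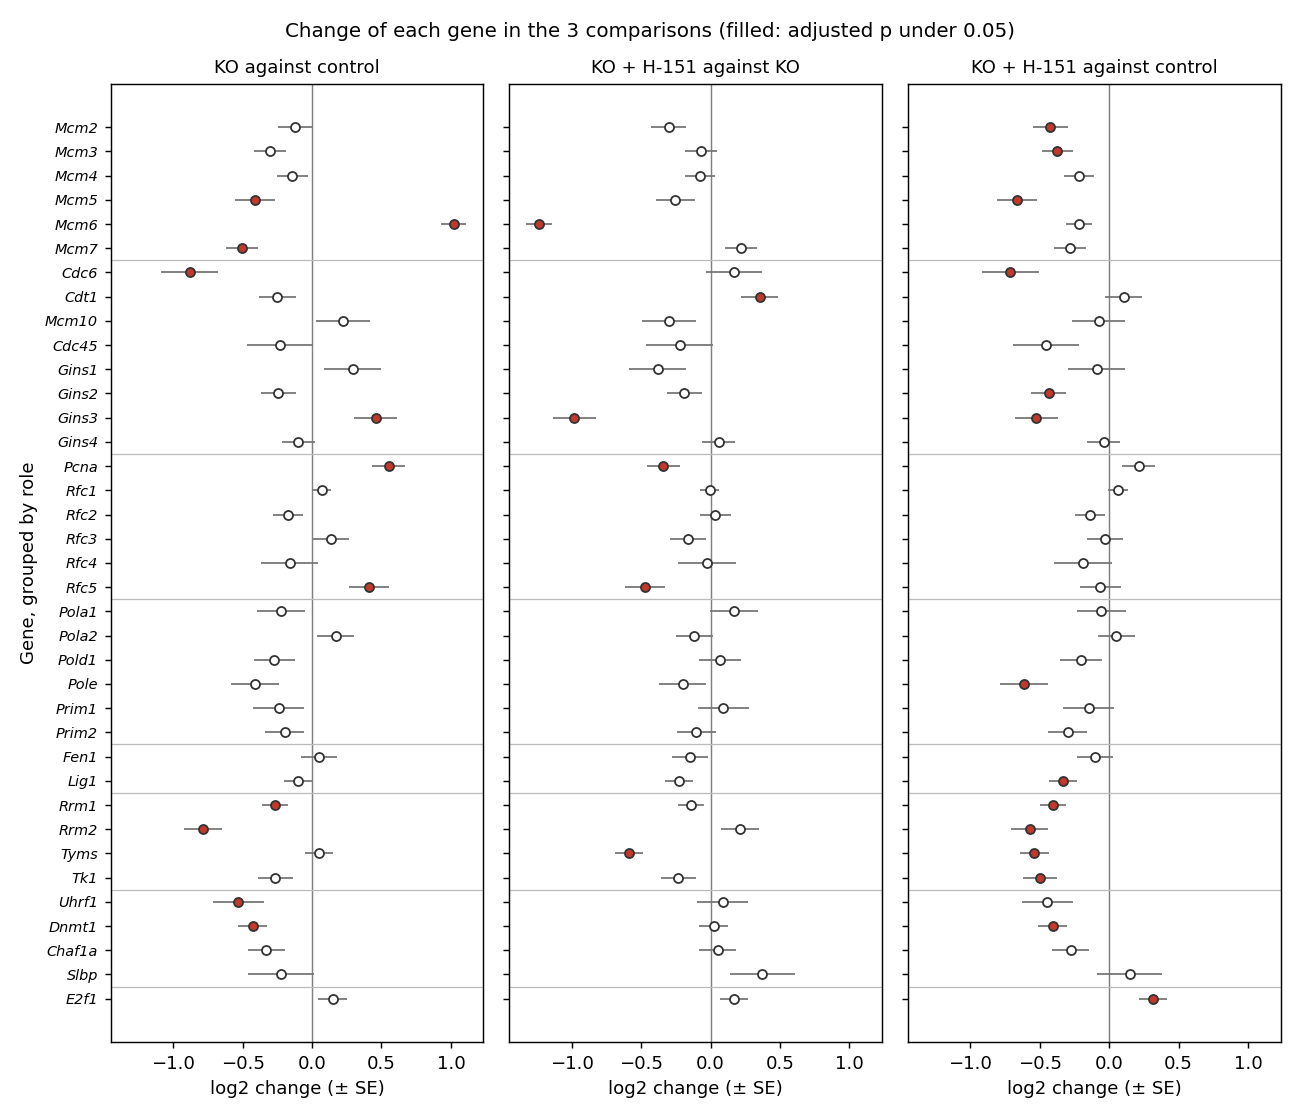
Log2 change ± SE (horizontal axes) of each gene (rows) in the 3 comparisons; filled points have an adjusted p under 0.05. In KO against control filled points lie on both sides of 0, from -0.88 (Cdc6) to 1.02 (Mcm6), and in KO + H-151 against control all filled points but E2f1 lie below 0.

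The E2F consensus stood in genes that moved in both directions. Of the 7 members that fell in KO, 5 had it (Mcm5, Mcm7, Cdc6, Uhrf1 and Dnmt1), and of the 4 that rose, 2 had it (Mcm6 and Gins3). Of 19 members that did not pass in KO and had a promoter entry, 6 had it. Rrm1, Rrm2, Pcna and Rfc5, which passed in KO, had none in their entries. Tyms, which passed only in the comparisons of KO + H-151, had none either.

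The other genes of the pathway were counted from lists set beside the members. Of 45 other origin and fork genes 4 rose and 8 fell in KO (26.7%, against 32.4% of all genes, median -0.07). Of these, Fam111a, a protease that acts at stalled forks, fell by 0.39 ± 0.07 and Rnaseh2b, a subunit of the enzyme that removes RNA from DNA, rose by 0.51 ± 0.10. In KO + H-151 against control 1 was higher and 4 lower (11.1%, against 22.9% of all genes). Top2a, topoisomerase II, went from 157 to 101 (-0.64 ± 0.12) and Dbf4, the activator of the CDC7 kinase, from 47.03 to 34.8 (-0.43 ± 0.09). With H-151 against KO 3 rose and 3 fell (13.3%, against 40.8% of all genes). Among those that fell were Dbf4 (-0.35 ± 0.09) and Pold3 (-0.35 ± 0.12). Total-count scaling gave 1 higher and 18 lower in KO, and 7 higher and 0 lower with H-151 against KO.

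Of 34 other nucleotide supply genes 3 rose and 5 fell in KO (23.5%, against 32.4% of all genes, median -0.05). Samhd1, which breaks down deoxynucleoside triphosphates and is known as an interferon-stimulated gene, had the largest rise, from 97.9 to 668 scaled CPM (2.76 ± 0.07), and fell with H-151 to 80.5. Dut, which removes dUTP, fell in KO from 54.1 to 33.1 (-0.69 ± 0.09). With H-151 against KO 3 rose and 10 fell (38.2%, against 40.8% of all genes). In KO + H-151 against control 29.4% were called, against 22.9% of all genes, with 1 higher and 9 lower. Among the latter were Ctps, CTP synthase, from 79.6 to 50.1 (-0.66 ± 0.09), and Uck2, a uridine and cytidine kinase, from 59.4 to 35.9 (-0.71 ± 0.09). Ctps also fell against KO (-0.59 ± 0.09). Under total-count scaling 1 rose and 15 fell in KO, and 9 rose and 6 fell with H-151 against KO.

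Among 32 regulators of the step from G1 to S, 8 rose and 7 fell in KO (46.9%, against 32.4% of all genes). Ccne1, cyclin E1, rose from 19.1 to 58.1 scaled CPM (1.56 ± 0.12) and fell with H-151 to 11.9 (-2.20 ± 0.12), also below control (-0.64 ± 0.12). Rbl1, the pocket protein p107, rose in KO from 9.46 to 26.3 (1.38 ± 0.14). With H-151 6 rose and 9 fell against KO (46.9%, against 40.8% of all genes). In KO + H-151 4 were higher and 6 lower than control (31.25%, against 22.9% of all genes). Cdkn1c, the inhibitor p57, rose from 12.7 in KO to 34.7, and stood at 18.2 in control (0.90 ± 0.13 against control). Total-count scaling gave 4 higher and 12 lower in KO, and 8 higher and 5 lower with H-151 against KO.

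Mitosis markers were lower in KO + H-151. All 18 were lower than in control, with a median of -0.65 where the members had -0.22, and 10 of 18 fell against KO. Of all genes, 11.4% were lower than in control and 21.4% fell against KO. Cdk1, the mitotic kinase, went from 84.8 in control and 75.1 in KO to 48.8 (-0.79 ± 0.08 against control and -0.61 ± 0.08 against KO). In KO 1 of 18 rose and 6 fell (38.9%, against 32.4% of all genes). The riser was Cenpe, a kinetochore motor, from 77.1 to 124 (0.67 ± 0.10), which fell with H-151 to 48.7. Ttk, a spindle checkpoint kinase, fell in KO from 16.02 to 9.01 (-0.76 ± 0.19). Total-count scaling gave 12 lower in KO and 6 lower with H-151 against KO.

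Of 20 genes of the replication stress and damage checkpoint, 2 rose and 4 fell in KO (30%, against 32.4% of all genes). Both that rose also fell with H-151. The kinase gene Atm went from 29.7 to 149 and to 34.5 scaled CPM (2.29 ± 0.09 and -2.08 ± 0.09), and Wee1, which holds back CDK1, from 14.04 to 21.4 and to 12.95 (0.57 ± 0.13 and -0.69 ± 0.13). In KO + H-151 against control 10% of the list was called, against 22.9% of all genes. There the checkpoint kinase gene Chek1 was lower, at a low level, from 5.63 to 3.14 (-0.73 ± 0.24). With H-151 against KO 5 fell (25%, against 40.8% of all genes called), and total-count scaling gave 5 higher and 2 lower there. With edgeR the genes lower numbered 2 in KO and 1 in KO + H-151 against control.

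**Figure D5:**
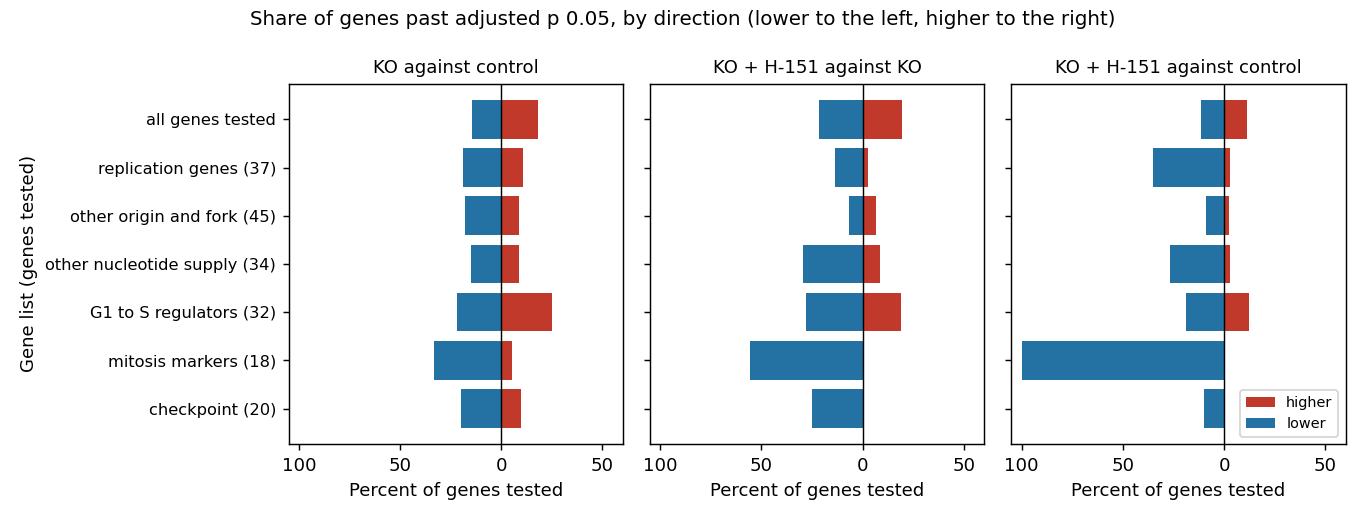
Percent of genes past an adjusted p of 0.05 in each comparison (panels), with lower genes to the left of 0 and higher genes to the right, for all genes tested and for 6 lists. In KO 18.9% of the replication genes are lower and 10.8% higher, against 14.2% lower and 18.2% higher of all genes. All 18 mitosis markers are lower in KO + H-151 against control.

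The KO + H-151 libraries differed from each other in these genes. In replicate 1, 28 of 37 members were lower than in replicate 2, against 49.6% of all genes, with a median log2 gap of 0.13 for the members and 0.43 for the mitosis markers (17 of 18 lower in replicate 1). In control 21 and in KO 18 of 37 members were lower in replicate 1. The mitosis markers were also split by replicate there, with 14 of 18 lower in replicate 1 in control (median gap 0.11) and 16 of 18 higher in replicate 1 in KO (median -0.20). Summed levels of the 9 macrophage markers were 1127 to 1332 scaled CPM in control, 1391 to 1404 in KO and 2914 to 3601 in KO + H-151, and all 9 were higher with H-151. Those of the 5 adipocyte markers were 1320 to 1555, 1174 to 1355 and 3118 to 4229, again with all 5 higher. In KO the melanocyte and Schwann cell markers, with 6 of 8 in the table, summed to 178 to 190 against 79.1 to 86.9 in control, and the 6 endothelial markers to 12.01 to 13.2 against 17.9 to 19.5. No marker with a row was at 0 in every library. The part of these cell types in the results was not tested.

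The number of members called moved with the library left out. Of 14 called in KO + H-151 against control, 7 were left without control replicate 1, 5 without control replicate 2 and 6 without KO + H-151 replicate 1. Members that fell with H-151 against KO numbered 9 without KO + H-151 replicate 2 and 3 without KO replicate 1 or KO + H-151 replicate 1, in place of 5. Scaling to total counts shifted the all-gene median in KO from -0.01 to -0.16. With H-151 against KO it gave 4 higher and 3 lower in place of 1 and 5. Without a variance trend the calls lost were Mcm5, Mcm7, Rfc5 and Rrm1 in KO, Pcna with H-151 against KO, and Mcm2, Mcm3, Cdc6, Lig1, Rrm1, Rrm2, Dnmt1 and E2f1 in KO + H-151 against control. DESeq2 lost Mcm5, Gins3, Rfc5, Rrm1 and Uhrf1 in KO, Cdt1 and Pcna with H-151 against KO, and Mcm2, Cdc6, Gins3, Pole and E2f1 in the last comparison.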

How the data were processed

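The authors deposited 1 table of 13706 genes by 6 libraries. The tools named in the submitters' processing notes are STAR 2.5.3a, featureCounts and edgeR, with build mm10. Annotation, strand setting and any filter are not given in the sources used here. What the authors deposited is a normalized signal, CPM relative to an adjusted library total (scaled CPM). Every value was a whole multiple of its column's step within 0.0006 (100% of values), so whole reads were recovered. The design was written for plain CPM and was kept, since the log-scale test applies equally.

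The 13648 genes that reached 1 scaled CPM in 2 or more libraries were fitted with limma 3.58.1 in R 4.3.3 on log2(scaled CPM + 1), 1 mean per group over all 6 libraries, with a variance trend (3 residual degrees of freedom, 15.7 after moderation). The pipeline was tested on simulated data. Alternatives were other pseudocounts, filters and scalings, a fit without the trend or of 2 groups, a replicate term, each library left out, a 1.5-fold minimum, and edgeR 4.0.16 and DESeq2 1.42.0 on recovered reads. Promoters came from RefSeq (GRCm38.p6), gene positions from GENCODE M21 (GRCm38, the same assembly as mm10). Library values are given for members past the threshold in any comparison, and at most 6 genes of each other list are named, the 2 with the smallest p per comparison. Members and lists were chosen with earlier results of these data known. The result of 1 gene of the checkpoint list is not reported here.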

Additional observations from a re-analysis of the deposited data

How the results depend on the processing

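Of the members called, 11 of 11 in KO, 6 of 6 with H-151 and 14 of 14 in KO + H-151 against control were kept under both other pseudocounts, no filter, median scaling and edgeR, and no call took the other sign under any alternative. In KO against control 11 members were called (4 higher, 7 lower). The counts were 19 (2 and 17) under total-count scaling, 6 (2 and 4) with DESeq2 and 3 (1 and 2) with a 1.5-fold minimum. Leaving out 1 library gave 5 to 12 members (2 to 4 higher and 3 to 8 lower). In KO + H-151 against KO 6 were called (1 higher, 5 lower). Higher members numbered 2 under quantile normalization, 4 under total-count scaling, and 0 with only these groups fitted, with DESeq2 and with a 1.5-fold minimum. Lower members numbered 3 under total-count scaling and 3 with a 1.5-fold minimum, which left 3 in all. Leaving out 1 library gave 4 to 9 (0 to 2 higher and 3 to 9 lower). In KO + H-151 against control 14 were called (1 higher, 13 lower). The counts were 6 (0 and 6) without a variance trend, 9 (0 higher) with DESeq2 and 3 (0 and 3) with a 1.5-fold minimum. Leaving out 1 library gave 5 to 14 (0 to 1 higher and 5 to 14 lower). A call lost with a library left out rests in part on having fewer samples. The E2F consensus was in 43.3% of members over the whole promoter entry and in 10% in the 100 bases before the start. Among the expression table's genes with an entry the shares were 4.66% and 1.74%.

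Deviations of same-numbered libraries from their group means correlated at -0.07 (control with KO), 0.15 (control with KO + H-151) and -0.13 (KO with KO + H-151). Such correlations cannot show how the libraries were made, so whether the labels' replicate numbers pair the libraries is not known. With the replicate block 0 members were higher with H-151 against KO, since Cdt1 was lost, and no other member's call changed. A term with the KO numbers crossed, added after seeing the data, gave 2 higher there. Over all genes it called 2891 higher and 2431 lower in KO, in place of 2483 and 1938. With H-151 against KO it called 3055 and 3314, in place of 2643 and 2923. In KO + H-151 against control it called 1985 and 2013, in place of 1570 and 1562. Members with few reads, such as Gins1 and Cdc45, limit what could be detected.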

Other observations

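Some members without a call in KO have a neighbour on the other strand at their 3′ end, whose reads cannot be told apart from theirs without a known strand setting. Eif4a2, beside Rfc4, changed by -0.26 ± 0.09 in KO against control (limma adjusted p = 0.0406), and Rfc4 by -0.16. Lat2, beside Rfc2, changed by 1.25 ± 0.12 with H-151 against KO (adjusted p = 3.40e-07), and Rfc2 by 0.04. Ubxn6, beside Chaf1a, changed by 0.15 ± 0.08 in KO (adjusted p = 0.204), and Chaf1a by -0.33.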
